A study of Danio rerio with 6 samples.

Results

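The collagen genes were followed in whole ovaries of adult zebrafish by RNA-seq. Every row of the gene table whose symbol has the form of a collagen chain name (col, the type number, a and the chain number, in either letter case) was taken, which gave 57 of 32519 rows. A minimum of 10 counts in at least 3 of the 6 libraries was reached by 49 of the 57, and all 49 were among the 19353 genes tested for a difference between genotypes. The other 8 rows, with 0 to 32 counts in any library, were col9a1b, col17a1a, col21a1, col24a1, col28a1a, col28a1b, col28a2a and the COL10A1 row ENSDARG00000054753. No gene reached the minimum through the libraries of 1 genotype alone.

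Ovaries of wild-type (WT) and ddx4-L mutant fish, also called ddx4-E4Δ, were collected at 6 months post-fertilization (mpf). They gave 3 libraries per genotype, described as biological replicates. Whether a library came from 1 fish or from several is not stated. The mutant line was made with CRISPR-Cas9 and has a few bases deleted from the alternative exon 4 of ddx4, the gene of a germ cell RNA helicase, so that the ovarian long transcript is lost while the short transcript without this exon can still be made. It is a single line, the deletion is present in every cell of the fish, and WT fish were the only controls. The RNA came from whole ovaries, and in such bulk samples fewer cells of a type and less RNA per cell cannot be told apart.

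Collagens are secreted proteins in which several chains wind into a triple helix. Fibrillar collagens such as types I and V build the fibrils that give a tissue its strength, FACIT collagens (fibril-associated collagens with interrupted triple helices) sit on the fibril surface, type VI forms beaded filaments, type VII forms anchoring fibrils below epithelia, and type IV forms the sheet-like network of basement membranes. In a fish ovary such membranes lie between the granulosa and theca layers of each follicle, under the surface epithelium and around vessels, and fibrils fill the stroma and theca. The table does not separate these sources.

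Library totals lay between 76520483 and 86263179, with no difference between genotypes (exact two-sided permutation test, p = 0.6, 3 against 3 libraries, where the smallest possible p is 0.1). Levels are given as CPM, that is, counts relative to the library total after scaling for composition. From their sums, the deposited values were taken to hold about 4 units for each sequenced fragment. On that basis 3 fragments, taken as the detection floor, correspond to 12 counts or 0.142 to 0.161 CPM. Values that are not multiples of 4 also occur, so this floor is approximate. Of the 49 collagen genes, 3 had a count of 0 in some library and 8 had some library under 12 counts. Gene lengths were not used, so CPM of different genes does not order their transcript levels. The ddx4 gene itself, whose total level does not report on the loss of 1 transcript form, had 16042 to 18234 counts in WT and 18951 to 19856 in mutant ovaries.

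The question asked was which collagens differed between WT and ddx4-L mutant ovaries. COL4A4 and col4a3, which encode chains of a specialized type IV network, were about 9 times higher in mutant ovaries, and COL9A2, a chain of the fibril-associated type IX collagen, was lower. No other collagen passed the test, a quasi-likelihood test in edgeR at a threshold of 0.05 on p-values adjusted by Benjamini-Hochberg for the 19353 genes. Thus 2 of 49 collagens were called higher, where 1.96% of all tested genes were, and 1 of 49 was called lower, against 2.61% of all genes. For all 3 the log2 fold change was also 1 or more in size, as was that of the called genes that made up 3.11% of all tested genes in either direction. The estimated fold change was above 0 for 25 collagens and below 0 for 24, and its median was 0.0058 on the log2 scale, beside 0.014 over all tested genes. This median depended on single libraries, being 0.34 without WT replicate 1 and -0.32 without mutant replicate 1, where that of all genes was 0.018 and -0.015. At an unadjusted p under 0.05 there were 6 collagens higher and 3 lower, where 9.98% and 9.96% of all genes lay. In 6 collagens every mutant library was above every WT library, and in 7 every mutant library was below, where 14.3% and 14% of all genes showed such separation. The shares of separated collagens are near those of all genes.

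**Figure D1:**
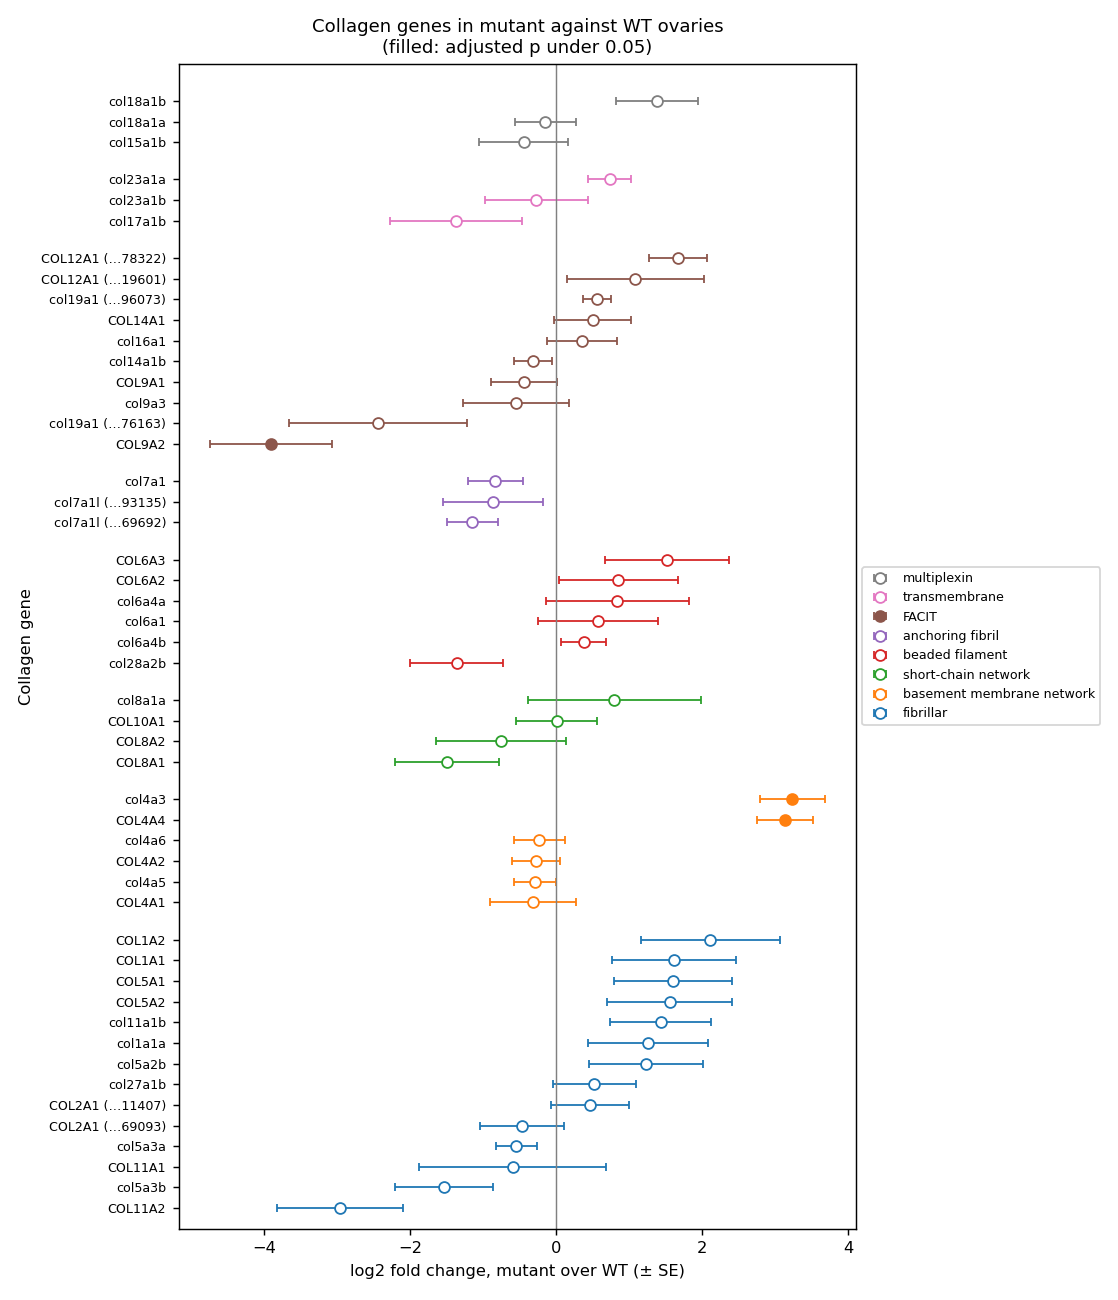
Log2 fold change of mutant over WT (x axis) for each of the 49 collagen genes, grouped and colored by collagen class, with bars of 1 SE derived from the edgeR F statistic. Filled symbols mark an adjusted p under 0.05, which only COL4A4, col4a3 (both to the right) and COL9A2 (to the left) have, while the 3 type I genes, COL5A1 and COL5A2 near the bottom have positive values with wide bars.

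Type IV collagen has 6 chain genes in the table, and all 6 passed the count minimum. COL4A4 (ENSDARG00000002831) had 36, 58 and 87 counts in WT replicates 1 to 3 and 654, 407 and 551 in mutant replicates 1 to 3. In CPM this was 0.483, 0.768 and 1.03 in WT, with a mean of 0.761 ± 0.274 (SD, n = 3), and 7.85, 5.32 and 6.95 in mutant ovaries, with a mean of 6.71 ± 1.28 (SD, n = 3). Every mutant library was thus far above every WT library, and the lowest mutant value exceeded the highest WT value several times over. The log2 fold change was 3.14 with an SE of 0.38 (edgeR, adjusted p = 0.0075). Leaving out any 1 of the 6 libraries gave 2.89 to 3.42 with adjusted p between 0.017 and 0.034, so that the call was kept in all 6 fits.

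col4a3 (ENSDARG00000003395) showed the same separation. It had 98, 49 and 74 counts in the WT libraries and 1074, 393 and 698 in the mutant libraries, or 1.32, 0.649 and 0.878 CPM against 12.9, 5.14 and 8.81 CPM. The mutant libraries differed among themselves by 2.51-fold and the WT libraries by 2.03-fold, with mutant replicate 1 the highest of all. The log2 fold change was 3.24 with an SE of 0.45 (edgeR, adjusted p = 0.012), and with 1 library left out it lay between 2.88 and 3.55 (adjusted p 0.018 to 0.044, called in all 6 fits).

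In mammals the COL4A3 and COL4A4 chains assemble with COL4A5 into a network known from the glomerular basement membrane of the kidney, and defects of these chains cause Alport syndrome in humans. The human COL4A3 and COL4A4 genes are arranged head to head. In the RefSeq annotation of the GRCz12tu zebrafish assembly, used here for gene order only, col4a4 and col4a3 are also neighbours, on chromosome 15, as are col4a1 and col4a2 on chromosome 9 and col4a6 and col4a5 on chromosome 7. The ratio of col4a3 to COL4A4 counts was 2.72, 0.845 and 0.851 in the WT libraries and 1.64, 0.966 and 1.27 in the mutant libraries, so the ranges of the ratio overlapped while both genes were higher.

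The remaining 4 type IV genes did not differ beyond the spread of the libraries. COL4A1 and COL4A2 encode the chains found in nearly all basement membranes. COL4A2 (ENSDARG00000104110), named among the 6 with the highest mean CPM, had 30.0, 26 and 11.4 CPM in WT and 19.6, 19.1 and 17 CPM in mutant libraries. The mutant values lay inside the WT range, and WT replicate 3 was the lowest of all 6. Its log2 fold change was -0.28 with an SE of 0.33 (edgeR, adjusted p = 0.69). COL4A1 had a value of -0.32, col4a5 of -0.29 and col4a6 of -0.23, and in all 3 the genotypes overlapped, with adjusted p of 0.82, 0.64 and 0.77 from edgeR. col4a5, the third partner of the network named above, had 5.10, 5.40 and 5.54 CPM in WT against 5.99, 3.58 and 3.58 CPM in mutant libraries. The summed level of the 6 genes was 43.0, 38.8 and 27.7 CPM in WT and 55.0, 38.5 and 39.6 CPM in mutant ovaries. Without COL4A4 and col4a3 the sum was 41.2, 37.4 and 25.8 CPM against 34.3, 28 and 23.8 CPM.

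**Figure D2:**
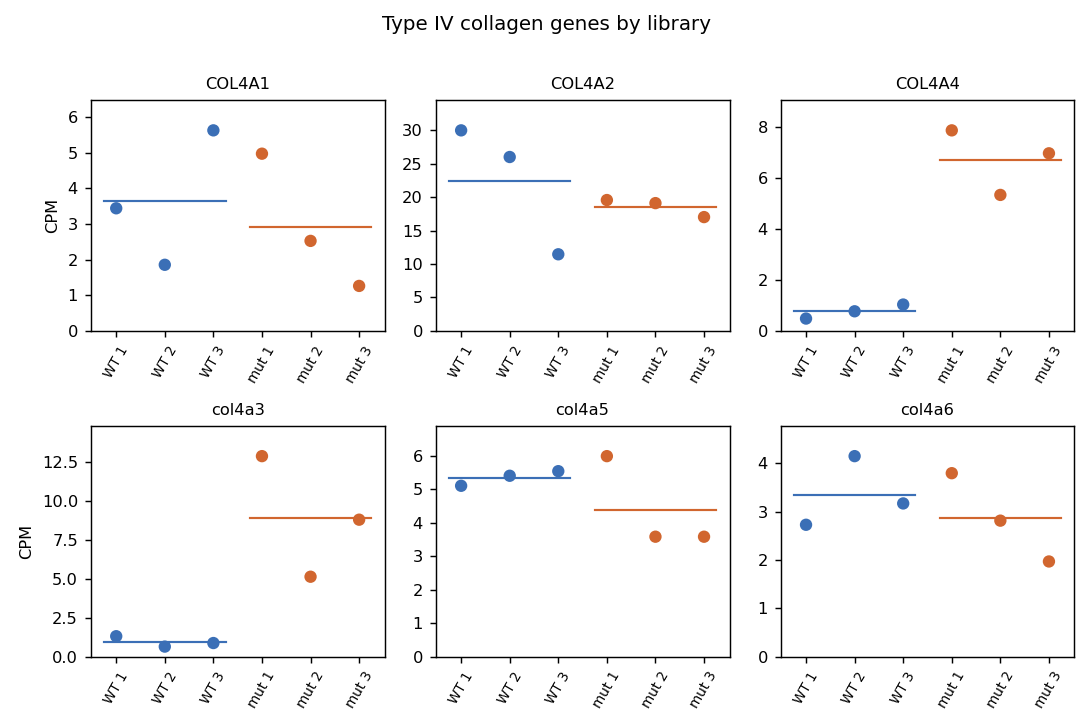
Level of the 6 type IV collagen genes in CPM (y axis, from 0) in each library (x axis, 3 WT in blue and 3 mutant in orange), with a line at the mean of each genotype. COL4A4 and col4a3 lie between 5.14 and 12.9 CPM in the mutant libraries and at or below 1.32 CPM in WT, whereas the points of the other 4 genes overlap.

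The fibrillar collagens form the largest class, with 14 genes, of which 9 had a positive and 5 a negative fold change and none passed the adjusted test. Their median log2 fold change was 0.88. By library, the values of the 3 type I genes did not follow genotype. COL1A2 (ENSDARG00000020007), a type I chain, had 4.10, 1.99 and 10.6 CPM in WT replicates 1 to 3 and 46.5, 2.96 and 22.9 CPM in mutant replicates 1 to 3. COL1A1 (ENSDARG00000035809) had 5.45, 4.67 and 13.5 CPM against 46.6, 3.16 and 22.9 CPM. col1a1a (ENSDARG00000012405) had 6.51, 5.76 and 19.3 CPM against 48.4, 4.20 and 22.8 CPM. In all 3 genes mutant replicates 1 and 3 were the highest, WT replicate 3 came next, and mutant replicate 2 lay within or below the range of WT replicates 1 and 2. The log2 fold changes were 2.12 (SE 0.95), 1.62 (SE 0.85) and 1.25 (SE 0.82), with edgeR adjusted p of 0.27, 0.34 and 0.45, and the genotypes overlapped in each. Without mutant replicate 1 the values were 1.21 for COL1A2, 0.72 for COL1A1 and 0.35 for col1a1a. Between mutant replicates 1 and 2 these genes differed by 11.5-fold to 15.7-fold.

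The type V chains, which start and size the type I fibrils, followed the same order of libraries. COL5A1 had 2.16, 1.17 and 4.01 CPM in WT and 14.5, 1.36 and 6.48 CPM in mutant ovaries. COL5A2 had 3.04, 1.72 and 7.52 CPM against 24.6, 2.22 and 9.22 CPM. With log2 fold changes of 1.6 (SE 0.81) and 1.55 (SE 0.86), neither passed the test (edgeR, adjusted p = 0.33 and 0.37), and without mutant replicate 1 the values were 0.68 and 0.48. The other 3 type V genes did otherwise, since col5a2b had a value of 1.23, col5a3a of -0.54 and col5a3b of -1.54. col5a3a (ENSDARG00000098294) had 10.3, 9.59 and 18.8 CPM in WT and 9.34, 8.72 and 8.50 CPM in mutant libraries, which did not overlap (edgeR, adjusted p = 0.34).

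Type VI collagen, which forms beaded filaments around cells, also varied with the library. COL6A3 (ENSDARG00000077139) had 3.33, 2.90 and 13.5 CPM in WT and 32.1, 3.70 and 20.8 CPM in mutant ovaries. col6a1 had 5.94, 2.79 and 14 CPM against 22.3, 2.39 and 9.15 CPM, and COL6A2 had 3.21, 1.17 and 8.21 CPM against 14.6, 2.33 and 5.88 CPM. The genotypes overlapped in all 3 genes, with mutant replicate 1 the highest in each. Their log2 fold changes were 1.51, 0.57 and 0.85 (edgeR, adjusted p = 0.38, 0.75 and 0.62). Without mutant replicate 1 the value of COL6A3 was 0.89, and those of col6a1 and COL6A2 were below 0, at -0.40 and -0.037. The type VI gene col6a4a had another order, with 11.9, 0.318 and 4.15 CPM in WT and 14.9, 8.15 and 6.31 CPM in mutant ovaries. Its WT libraries differed by 37.5-fold, and its log2 fold change was 0.84 (edgeR, adjusted p = 0.69). col6a4b varied little within either genotype and had a value of 0.38 (edgeR, adjusted p = 0.56). Among the 6 genes of the beaded filament class 5 were positive and 1, the type XXVIII gene col28a2b, was negative at -1.36, and none was called.

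**Figure D3:**
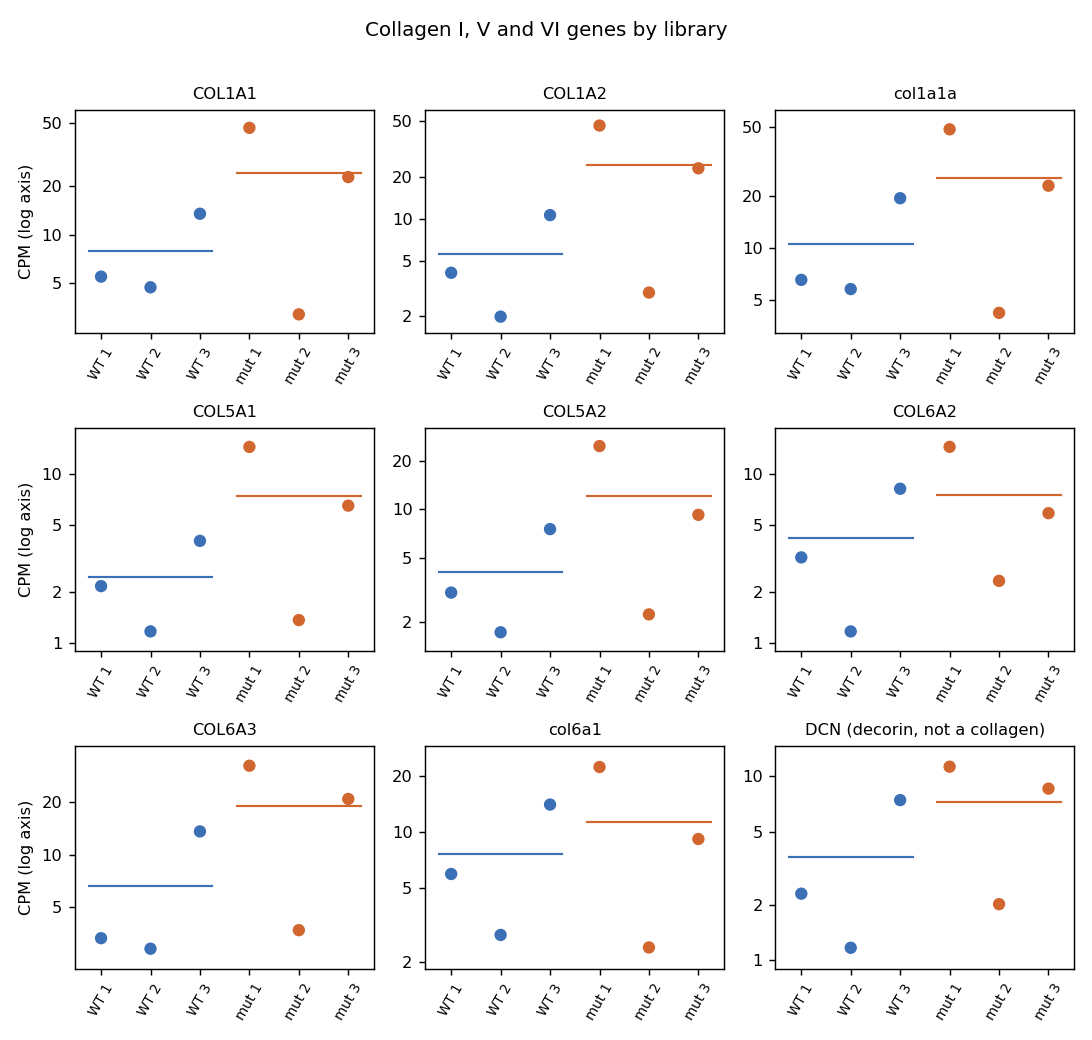
Level of 8 collagen genes of types I, V and VI, and of decorin for comparison, in CPM (y axis, logarithmic) in each library (x axis, 3 WT in blue and 3 mutant in orange), with lines at the arithmetic means. In each panel WT replicate 3 and mutant replicates 1 and 3 are the 3 highest, and mutant replicate 2 lies with WT replicates 1 and 2.

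The pattern was counted over the whole family. In 12 of the 49 collagens, or 24.5%, the 3 highest libraries were WT replicate 3 and mutant replicates 1 and 3, whereas this set of 3 was the highest in 1108 of 19353 tested genes, or 5.73%. The set was picked after the values were seen, and the genes are not independent of each other, so the 2 shares are a description without a test. The 12 genes were COL1A1, COL1A2, col1a1a, the COL2A1 row ENSDARG00000011407, COL5A1, COL5A2 and col11a1b of the fibrillar class, COL6A2, COL6A3, col6a1 and col6a4b of the beaded filaments, and COL14A1 of the FACIT class. None of them was called in the fit of all 6 libraries, and none of the type I, V and VI genes given above was called with any 1 library left out. Without mutant replicate 2, their lowest mutant library, the log2 fold change of COL1A2 was 2.63 and that of COL6A3 was 1.99, and COL4A4 and col4a3 were the only collagens called.

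The same 3 highest libraries, found in 5.73% of all tested genes, occurred in some transcripts of other lists. Among them were 3 of 9 tested stroma and fibroblast markers and 2 of 6 smooth muscle markers, both of them rows of TAGLN. There were also 3 of 24 fibril-associated matrix genes and 1 of 5 skin and epithelium markers. Endothelial markers had it in 1 of 5 (tek) and granulosa markers in 1 of 8 (the FOXL2 row ENSDARG00000042180). It also occurred in 4 of 21 procollagen cleavage and cross-linking genes, 3 of 17 collagen receptors and 2 of 25 basement membrane partners. No tested theca, oocyte, blood, cartilage, skeletal muscle or liver marker had this order. Decorin (DCN), a small proteoglycan that binds type I fibrils and a marker of fibroblasts, had 2.3, 1.17 and 7.43 CPM in WT and 11.3, 2.01 and 8.58 CPM in mutant ovaries. SPARC, a collagen-binding matrix protein, had 7.16, 4.58 and 16.2 CPM against 32.5, 4.04 and 21.4 CPM. All 5 tested leukocyte markers (ptprc, LCP1, CORO1A, SPI1 and cd74a) had the same 3 libraries highest, and their summed level was 19.9, 32.9 and 61.3 CPM in WT and 89.1, 31.3 and 68.1 CPM in mutant ovaries. The 1 epithelial marker was the keratin gene krt4, with 4.49, 1.40 and 7.64 CPM against 29.0, 4.08 and 23.6 CPM. The part of these cells in the collagen values was not tested.

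Of 9 tested stroma and fibroblast markers, 8 had a positive and 1, thy1, a negative fold change, and none was called. Their median log2 fold change was 0.98, beside 0.014 over all tested genes. By library these markers gave a mixed picture. Of 11 rows of the stroma and fibroblast list, thy1 made up nearly all of the sum of 772 to 1617 CPM in WT and 658 to 767 CPM in mutant ovaries. Without thy1 the sum was 9.78, 10.8 and 20.4 CPM against 31.7, 12.8 and 21.4 CPM, again highest in the same 3 libraries. The receptor gene PDGFRA, a fibroblast marker, had 3.09 to 5.58 CPM in WT and 3.29 to 6.78 CPM in mutant ovaries. TCF21, with the smallest p of the list, had 0.389, 0.662 and 0.178 CPM against 1.67, 2.21 and 1.72 CPM, without overlap. Its log2 fold change was 2.18 (edgeR, adjusted p = 0.072). Mutant replicate 2 stood apart by liver transcripts. The 6 liver markers, led by the transferrin gene tfa, summed to 486 CPM there, to 18.1 and 13.4 CPM in mutant replicates 1 and 3, and to 0.742 to 4.03 CPM in WT. The part of this library in the fibrillar and type VI values was not tested beyond leaving it out.

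The FACIT class held 10 genes with 5 positive and 5 negative values and a median log2 fold change of 0.018. The COL12A1 row ENSDARG00000078322, a type XII collagen known from dense connective tissue, had 575, 1376 and 1769 counts in the WT and 5463, 3934 and 2572 in the mutant libraries, or 7.72, 18.2 and 21 CPM against 65.6, 51.4 and 32.4 CPM. Every mutant library was above every WT library, with means of 15.6 ± 7.0 and 49.8 ± 16.6 CPM (SD, n = 3 each). The log2 fold change was 1.67 with an SE of 0.40, which missed the threshold (edgeR, adjusted p = 0.064), while DESeq2 called it with an adjusted p of 9.95e-05. With 1 library left out, edgeR gave 1.34 to 1.94 with adjusted p between 0.077 and 0.17. DESeq2 called more genes in general, 2323 of the 19353 tested and 6 of the 49 collagens, where edgeR called 884 and 3. The other COL12A1 row, ENSDARG00000019601, had 0.806, 1.48 and 1.72 CPM against 7.03, 0.484 and 1.01 CPM, in which 1 mutant library was high and the genotypes overlapped.

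The first of these COL12A1 rows shows how a class sum can rest on 1 gene. The summed FACIT level was 32.6, 43.7 and 44.8 CPM in WT and 98.6, 74.2 and 59.5 CPM in mutant ovaries, without overlap. Without the COL12A1 row ENSDARG00000078322 the sum was 24.9, 25.5 and 23.8 CPM against 33.0, 22.7 and 27.1 CPM, and the genotypes overlapped.

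COL9A2 (ENSDARG00000024492) had 292, 323 and 55 counts in WT replicates 1 to 3 and 18, 6 and 23 in mutant replicates 1 to 3. This was 3.92, 4.28 and 0.652 CPM against 0.216, 0.0785 and 0.290 CPM, with mutant replicate 2 under the detection floor. The genotypes did not overlap, but WT replicate 3 lay 6.56-fold below the highest WT library and close to the mutant range. The log2 fold change was -3.91 with an SE of 0.84 (edgeR, adjusted p = 0.047). With 1 library left out, the call was kept only without WT replicate 3 (adjusted p = 0.024) and lost without each of the others (adjusted p 0.11 to 0.14), with fold changes from -4.38 to -3.55.

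Type IX collagen is known from cartilage, where its α1, α2 and α3 chains coat fibrils of types II and XI. COL9A1, the α1 chain, had 0.994, 0.927 and 1.14 CPM in WT and 0.720, 0.471 and 1.06 CPM in mutant ovaries, and col9a3 had 0.121 to 0.503 CPM against 0.177 to 0.235 CPM. The genotypes overlapped in both, with log2 fold changes of -0.44 and -0.55. COL11A2 (ENSDARG00000012422), a type XI chain, had 2.70, 0.993 and 0.285 CPM in WT and 0.144, 0.248 and 0.114 CPM in mutant ovaries. All mutant libraries were below all WT libraries, with a log2 fold change of -2.96 and an SE of 0.87, and the test was missed (edgeR, adjusted p = 0.11), while DESeq2 gave an adjusted p of 0.015. As in COL9A2, WT replicate 3 was the lowest WT library. Of the other members of these types, COL11A1 had -0.60, col11a1b 1.43 and the COL2A1 rows 0.46 and -0.47, all with overlapping genotypes. The 8 rows of cartilage markers, such as aggrecan and matrilin genes, summed to 1.18 to 2.42 CPM in WT and 1.6 to 2.14 CPM in mutant libraries.

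Among the remaining FACIT genes, col19a1 is listed in 2 rows that moved apart. ENSDARG00000096073 had 9.47, 8.75 and 7.89 CPM in WT against 10.4, 14.2 and 13.9 CPM in mutant ovaries, with a log2 fold change of 0.56 and an SE of 0.20 (edgeR, adjusted p = 0.17). ENSDARG00000076163 had 1.96, 0.358 and 0.913 CPM against 0, 0.353 and 0.240 CPM, with a value of -2.44 and an SE of 1.22 (edgeR, adjusted p = 0.32). Neither row overlapped between genotypes in CPM, and neither passed. In the second row WT replicate 2 and mutant replicate 2 both had 27 counts, so only the scaling set them apart. How alike the sequences of rows with a shared symbol are was not examined, and whether reads fit both rows was not tested.

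The anchoring fibril class consists of 3 type VII genes, all with negative values. col7a1l (ENSDARG00000069692) had 4.28, 4.04 and 5.72 CPM in WT and 1.82, 2.99 and 1.53 CPM in mutant ovaries, with a log2 fold change of -1.15 and an SE of 0.35 (edgeR, adjusted p = 0.13). Its libraries did not overlap, and DESeq2 gave an adjusted p of 0.026. col7a1 had 2.46, 2.90 and 2.73 CPM against 1.5, 0.968 and 2.07 CPM, also without overlap, and the second col7a1l row, ENSDARG00000093135, had 0.510 to 0.993 CPM against 0.151 to 0.811 CPM with overlap. Their log2 fold changes were -0.83 and -0.86. The summed level of the class was 7.25, 7.93 and 9.37 CPM in WT and 3.70, 4.77 and 3.75 CPM in mutant ovaries. No library of 1 genotype reached into the range of the other, and the libraries of each genotype differed by 1.29-fold at most.

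The smaller classes held no called gene. The 4 short-chain network genes of types VIII and X had 2 positive and 2 negative values, and the class sum was 1.34 to 3.53 CPM in WT and 1.49 to 2.04 CPM in mutant ovaries. COL8A1, a type VIII chain, had a log2 fold change of -1.49 with an SE of 0.71 (edgeR, adjusted p = 0.30). Among the 3 transmembrane genes, col23a1a had 4.03, 4.61 and 2.6 CPM in WT and 6.13, 6.98 and 5.55 CPM in mutant ovaries, which did not overlap (log2 fold change 0.73, SE 0.29, edgeR adjusted p = 0.22). The other 2 transmembrane genes, col17a1b and col23a1b, were much lower in CPM and had negative values of -1.37 and -0.27, with overlap. Of the 3 multiplexin genes, which encode basement membrane collagens of types XV and XVIII, col18a1b had 0.201, 0.371 and 0.214 CPM against 0.924, 0.484 and 0.643 CPM, again without overlap (log2 fold change 1.38, SE 0.56, edgeR adjusted p = 0.23). Its relative col18a1a had 5.21, 6.49 and 13 CPM against 10.5, 6.92 and 4.90 CPM, with overlap and a value of -0.15.

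**Figure D4:**
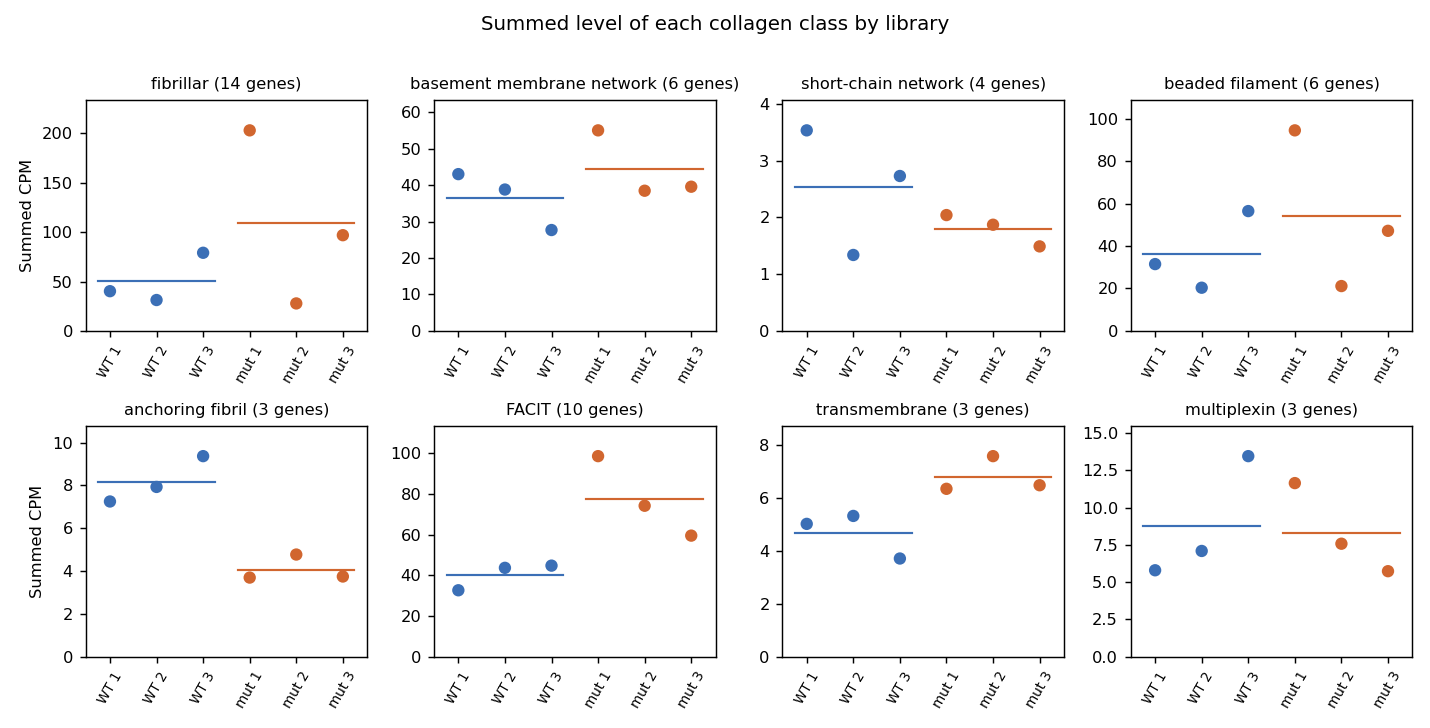
Summed level of each of the 8 collagen classes in CPM (y axis, from 0) in each library (x axis, 3 WT in blue and 3 mutant in orange), with lines at the means. The fibrillar sum runs from 27.8 to 203.0 CPM among mutant libraries, the anchoring fibril sum stays at or below 4.77 CPM in mutant and at or above 7.25 CPM in WT, and the transmembrane and FACIT sums also do not overlap. In the transmembrane class, however, 2 of the 3 genes have negative fold changes.

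The spread among replicates differed between genes of the family. Within mutant ovaries 12 collagens varied by more than 5-fold, and within WT 9 did, while 10 collagens varied by less than 2-fold within both genotypes. Those 10 included col4a5, col4a6, col5a3a, col14a1b, col19a1 (ENSDARG00000096073), col23a1a and col7a1l (ENSDARG00000069692). A genotype with a count of 0 in some library has no such ratio and was left out of these counts. This applied to COL11A1 and the col19a1 row ENSDARG00000076163 in mutant ovaries and to col8a1a in WT. All collagens together summed to 169, 156 and 237 CPM in WT and 475, 183 and 261 CPM in mutant ovaries. Mutant replicate 1 was the highest, and mutant replicate 2 lay between WT replicates 1 and 3. The summed fibrillar level was 40.2, 31.3 and 79.1 CPM in WT and 203.0, 27.8 and 96.9 CPM in mutant ovaries, and that of the beaded filaments was 31.5, 20.4 and 56.5 CPM against 94.6, 21.1 and 47.2 CPM.

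Chains that share a trimer were compared as ratios of counts. In all, 6 pairs were tested with an exact two-sided permutation test, whose smallest p with 3 against 3 libraries is 0.1, and none could therefore reach 0.05. The ratio of COL1A2 to col1a1a was 0.629, 0.345 and 0.549 in WT and 0.961, 0.704 and 1.01 in mutant ovaries. Every mutant ratio was higher than every WT ratio, mutant replicate 2 included, by 0.84 on the log2 scale (p = 0.1 by exact permutation, 0.3 after adjustment over the 6 pairs). The ratio of COL6A2 to col6a1 was 0.541, 0.417 and 0.586 against 0.654, 0.973 and 0.643, a difference of 0.54 on the log2 scale with the same exact p. With 1 library left out the differences lay between 0.58 and 1.02 for the first and between 0.35 and 0.65 for the second pair.

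The other 4 ratios overlapped between genotypes. COL1A1 to col1a1a differed by 0.21 on the log2 scale (exact permutation p = 0.3). COL4A2 to COL4A1 ran from 2.04 to 14 in WT and from 3.93 to 13.5 in mutant ovaries, a wide spread in both (exact permutation p = 0.9). col4a6 to col4a5 lay between 0.534 and 0.785 in all 6 libraries, and COL5A2 to COL5A1 between 1.40 and 1.88, although the level of each chain of the latter pair varied by more than 12-fold. The adjusted p over the 6 pairs was 0.6 for the first of these ratios and 0.9 for the other 3.

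**Figure D5:**
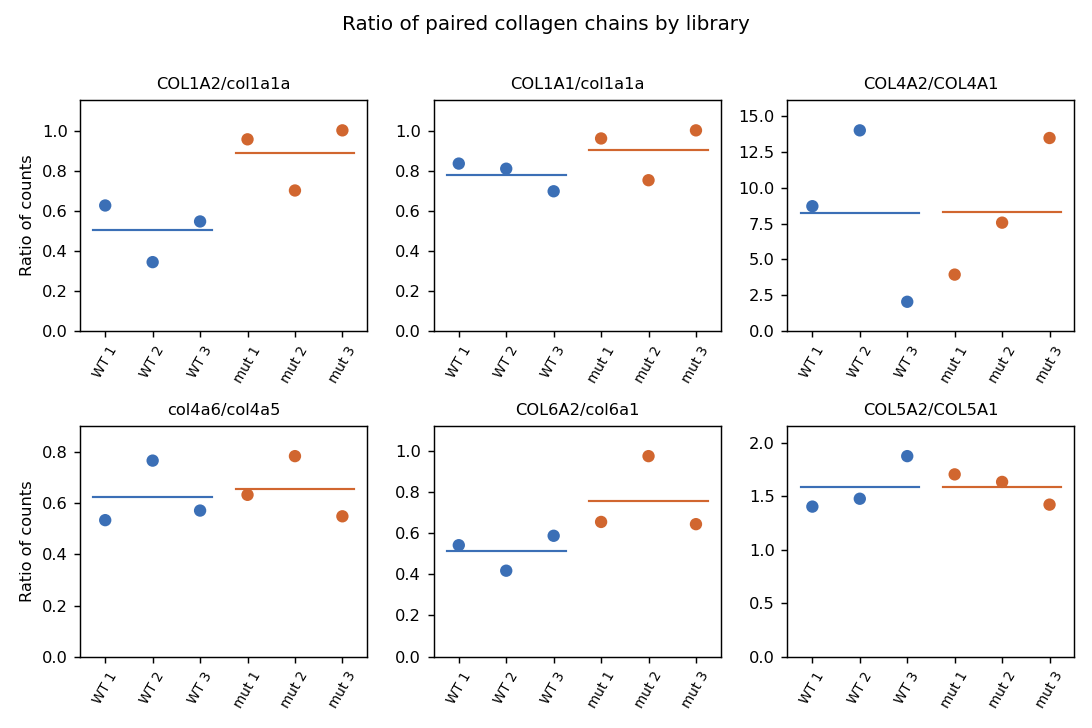
Ratio of counts of the 6 pairs of collagen chains (y axis, from 0) in each library (x axis, 3 WT in blue and 3 mutant in orange), with lines at the arithmetic means. The COL1A2 to col1a1a ratio is at most 0.629 in WT and at least 0.704 in mutant ovaries, and the COL5A2 to COL5A1 ratio stays between 1.40 and 1.88 in all libraries.

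Genes that act on collagens were read from 5 lists. The median log2 fold change given for each list stands beside 0.014 over all tested genes. The enzymes and chaperones that modify and fold the chains in the endoplasmic reticulum numbered 24 tested genes, of which 15 had positive and 9 negative values, with a median log2 fold change of 0.34. The only one called was P4HA1 (ENSDARG00000071082), a catalytic subunit of prolyl 4-hydroxylase, with 38.1, 54.6 and 46.4 CPM in WT and 23.5, 30.8 and 22.1 CPM in mutant ovaries. All mutant libraries were lower, by 0.86 on the log2 scale with an SE of 0.18 (edgeR, adjusted p = 0.046), and the call was lost in each of the 6 fits with 1 library left out (adjusted p 0.051 to 0.14) and with total-count scaling (0.054). In 8 of the 24, beside 5.73% of all tested genes, the 3 highest libraries were those of the fibril genes above. These were the lysyl hydroxylases PLOD1 and PLOD2, the prolyl hydroxylase genes p4ha1a, P3H1 and P3H3, the chaperone SERPINH1, the FKBP10 row ENSDARG00000099183 and SPARC. That FKBP10 row was low, at 0.0795 to 0.517 CPM. The other tested FKBP10 row, ENSDARG00000045129, had another order, with 60.7, 62.3 and 53.3 CPM in WT and 55.4, 64.2 and 47.5 CPM in mutant ovaries.

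Of 21 tested genes for procollagen cleavage and cross-linking, with a median of 0.040, TGM2 (ENSDARG00000074094), a transglutaminase that cross-links matrix proteins, was called lower. It had 73.8, 68.1 and 86.7 CPM in WT and 18.3, 6.36 and 27.9 CPM in mutant ovaries, without overlap (log2 fold change -2.12, SE 0.47, edgeR adjusted p = 0.0498). Left out in turn, the libraries gave adjusted p between 0.022 and 0.14, and the call was kept without mutant replicate 2 or 3 and lost without each of the others. It was also lost with a mean count filter of 10, robust dispersion and total-count or upper-quartile scaling (adjusted p up to 0.062). Of 24 tested fibril-associated matrix genes, with a median of 0.097, POSTN (ENSDARG00000104267) was called higher. This gene of periostin, a matrix protein that binds type I collagen, had 6.53, 4.42 and 9.68 CPM in WT and 47.3, 21.2 and 54.4 CPM in mutant ovaries (log2 fold change 2.57, SE 0.42, edgeR adjusted p = 0.019). Unlike in the type I genes, mutant replicate 2 was also above all WT libraries. The call was kept without WT replicate 3 or mutant replicate 2 and lost without each of the others (adjusted p 0.015 to 0.075). The other POSTN row, ENSDARG00000043806, went the other way, with 244, 65 and 57 counts in WT against 7, 74 and 0, and overlapped. Its log2 fold change was -2.19 with an SE of 1.43 (edgeR, adjusted p = 0.45).

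Of 25 tested basement membrane partners of type IV collagen (laminins, nidogens, perlecan and the Fraser complex genes), with a median of 0.22, fras1 (ENSDARG00000054619) was called lower. This Fraser complex gene, whose protein lies below epithelia, had 4.61, 4.57 and 3.30 CPM in WT and 1.2, 0.575 and 0.669 CPM in mutant ovaries (log2 fold change -2.35, SE 0.40, edgeR adjusted p = 0.023). It was kept without WT replicate 3 or mutant replicate 1 and lost without each of the others (adjusted p 0.033 to 0.074). No laminin, nidogen or perlecan gene was called, so COL4A4 and col4a3 were the only type IV or partner genes called higher. The laminin gene LAMB2 missed the threshold with a larger but less certain estimate (log2 fold change 4.03, SE 1.03, edgeR adjusted p = 0.076). Of 17 tested collagen receptor genes, with a median of 0.24, itga2.1 (ENSDARG00000069390), an α subunit of collagen-binding integrins, was called lower. It had 108, 203 and 116 counts in WT and 6, 8 and 0 in mutant ovaries, all 3 of these under the detection floor of 12 counts, so its fitted log2 fold change of -4.93 depends on the smallest counts (edgeR, adjusted p = 0.036). Only the fit without mutant replicate 3 kept this call (adjusted p 0.031 to 0.12 over the 6 fits). Over the 5 lists 1 gene was called higher and 4 lower, where 1.96% and 2.61% of all tested genes were. When a library was left out, 0 to 3 of the 5 lists' genes were called.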

How the data were processed

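Ovary RNA of WT and ddx4-L mutant fish was sequenced in 3 libraries per genotype, and the authors deposited 1 table of estimated counts per gene. The submitters' processing notes name HISAT2, StringTie, RSEM and DESeq2 with GRCz11, whereas the study's methods name STAR and featureCounts and another library kit, so the counter is uncertain. The whole-number values sum to several times the clean reads, which was taken as about 4 units per fragment, and were treated like RSEM estimates. Symbols came from a reference table (29200 of 32519 rows).

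Genes were filtered with filterByExpr, scaled by TMM and tested in edgeR 4.0.16 (R 4.3.3, glmQLFTest, WT against mutant, no covariate) with adjustment over 19353 genes. The SE of an edgeR log2 fold change was derived as its size divided by the square root of the F statistic of the test. Alternatives were other filters, scaling by RLE, by total counts or by upper quartile, robust dispersion, values divided by 4, a replicate block, DESeq2 1.42.0 and leaving out each library. The labels do not say whether replicate numbers pair libraries. Deviations of same-numbered libraries from their group means had r of -0.09, 0.12 and 0.01, which cannot settle this with 3 libraries per genotype. Scripts were tested on simulated counts.

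The members, gene lists and pairs were chosen with earlier results of these data known. Named collagens had an unadjusted p under 0.05, were among the 6 with the highest mean CPM or the highest of a class, or belonged to a tested pair. From other lists, genes with an adjusted p under 0.05 were named, or otherwise the 2 with the smallest p. Other genes were named after their values were seen.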

Additional observations from a re-analysis of the deposited data

How the results depend on the processing

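Over the alternatives to the main settings, other than leaving out a library, the 2 collagens called higher were kept in each, and DESeq2 and division of the values by 4 called 3. The 1 collagen called lower, COL9A2, became 0 with a mean count filter of 10, with total-count scaling and with the replicate block (adjusted p 0.052, 0.052 and 0.15), and DESeq2 called 3, col7a1l and COL11A2 being added to it. DESeq2 and division by 4 both added COL12A1 to the higher genes. With a library left out, 2 were called higher and 0 to 1 lower. Total-count scaling moved the median of all genes from 0.014 to 0.096 on the log2 scale. The 5 calls in the lists of genes that act on collagens became 12 with DESeq2, 8 with values divided by 4, 3 with total-count scaling, 3 with the replicate block, and 0 to 3 without a library. All tested genes called numbered 884, and 325 with the block to 2323 with DESeq2. The labels do not say whether replicate numbers pair the libraries. The cause of these shifts, the block's lost calls among them, was not tested.

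Without a library, named values that changed sign were COL4A1 (-0.95 to 0.14), col18a1a (-0.48 to 0.34), COL6A2 (-0.037 to 1.79) and col6a1 (-0.40 to 1.37), and the log2 ratio differences of COL4A2 to COL4A1 (-0.58 to 0.81), col4a6 to col4a5 (-0.064 to 0.23) and COL5A2 to COL5A1 (-0.073 to 0.14), none of which was called. The log2 differences of the beaded filament and multiplexin sums also did (-0.080 to 1.07 and -0.40 to 0.37). The collagen median was -0.32 to 0.34 without a library. With values divided by 4 it was 0.47, but only 40 collagens were tested there, against 49 in the main fit. That median is thus over a different set of genes and does not by itself show a shift of the same genes. With 3 libraries per genotype, wide spread within a genotype limits what can be called.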

Other observations

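The marker lists of other ovarian cells hold values not yet given. Among 6 theca markers CYP11A1 (ENSDARG00000002347), the first enzyme of steroid synthesis, was called lower, with a mean of 213 CPM in WT and 130 CPM in mutant ovaries (log2 fold change -0.71, SE 0.11, edgeR adjusted p = 0.017). It was kept in 3 of the 6 fits with a library left out, those without WT replicate 1 and without mutant replicate 2 or 3. The other CYP11A1 row, ENSDARG00000092696, was not called. It had a log2 fold change of 0.053, with means of 0.911 CPM in WT and 0.944 CPM in mutant ovaries. Among 9 oocyte markers GDF9, a growth factor made by oocytes, was called lower (70.7 against 40.0 CPM, log2 fold change -0.82, SE 0.10, edgeR adjusted p = 0.0064), in all 6 such fits.

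In the other marker lists no gene was called by edgeR. The genes with the smallest p were CYP19A1 and FSHR among granulosa markers (log2 fold change -0.87 and -0.28) and cdh5 and TIE1 among endothelial markers (-0.54 and 0.28). For smooth muscle they were the TAGLN row ENSDARG00000033466 and acta2 (1.49 and -0.73). The other TAGLN row, ENSDARG00000045408, had a value of -0.071. For leukocytes the genes with the smallest p were CORO1A and LCP1 (1.05 and 1.02). For blood they were hbaa1 and the SLC4A1 row ENSDARG00000012881 (-1.69 and -0.52), while the other SLC4A1 row had 0.33. For skin and epithelium they were krt4 and epcam (2.07 and 0.57), and for skeletal muscle ckmb and ckma (0.58 and -0.39). For cartilage they were acanb and MATN1 (1.35 and -0.85), for liver tfa and FGB (6.52 and 5.36, both with mutant replicate 2 far above the rest), and for stroma TCF21 and thy1 (2.18 and -0.83).

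Among genes that act on collagens, 3 that missed the threshold were picked after their values were seen. They were not the nearest to it. PLOD3 (log2 fold change -0.44, edgeR adjusted p = 0.053) and itga2.3 (-2.30, edgeR adjusted p = 0.056) lay nearer. The laminin gene LAMB2 had 46, 52 and 178 counts in WT and 1436, 2814 and 153 in mutant ovaries, with mutant replicate 3 inside the WT range (edgeR, adjusted p = 0.076). LOXL4 (ENSDARG00000105442), a lysyl oxidase-like gene, had 110, 69 and 150 counts against 3, 12 and 0 (edgeR, adjusted p = 0.066). The other LOXL4 row, ENSDARG00000025089, overlapped between genotypes, with a log2 fold change of 0.094 (edgeR, adjusted p = 0.96). frem1b, a partner of fras1 in the Fraser complex, had 1653, 1332 and 1580 counts against 91, 585 and 251 (edgeR, adjusted p = 0.087).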
